A study of Saccharomyces cerevisiae with 8 samples.

Results

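Messenger RNA of wild-type budding yeast (Saccharomyces cerevisiae) was compared between cells that had recovered for 30 min from hydroxyurea and cells still in the drug. The comparison covers every feature of the deposited table with a value of at least 1 in at least one of these 2 libraries, which kept 6486 of 6547 features. The later library, called R30, came from cells filtered out of hydroxyurea and put into fresh medium for 30 min. The earlier one, called HU, came from cells arrested in G1 by alpha factor, a mating pheromone, and then released for 1 h into 200 mM hydroxyurea. Both libraries were of strain WFA72, whose genotype the labels give as wildtype (WT). Other libraries of the same strain, in alpha factor (G1) and 60 min after removal of the drug (R60), are given beside them as values. The same pair of times in strain WFA73, labelled mec1 with no allele named, is set beside the results of WT. Its values of MEC1 do not check that label, because the feature shares windows with its neighbours: over the 4 times MEC1 ranged between 35.7 and 90.3 RPM in the WT strain and between 76.6 and 124 RPM in the mec1 strain. SML1, an inhibitor gene of ribonucleotide reductase, had 245 to 845 RPM in the 4 libraries of WT and 21.3 to 65.5 RPM in those of mec1. The labels name no change at SML1. MEC1 encodes the kinase at the top of the S-phase checkpoint. Each strain and time has 1 library, so differences between libraries have no replicate check, no p-value can be given, and only the size of a difference is described.

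Values are RPM (reads scaled to a common library total) as deposited, not divided by gene length, so levels are compared between times and not between genes. Differences are R30 minus HU on the scale log2(RPM + 1), on which 1 is a 2-fold difference, and this scale understates the fold of low features. The range in parentheses after a difference is a 95% interval for counting error alone. The RPM scale rested on 1820129 reads in R30 and 1596132 reads in HU, with a median of 110.2 and 94.2 reads per counted window. A library with 0 reads in a window allows up to 1.65 RPM in R30 and 1.88 RPM in HU. The median counting interval reached 0.39 to either side of the difference. Each value is a mean over windows that include 1000 bp on either side of the gene, so reads of neighbours count towards it. Values are therefore also given after the neighbours had been separated by calculation, where that matters. In RNA from a whole culture, fewer cells of a kind and less RNA per cell cannot be told apart.

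Hydroxyurea blocks ribonucleotide reductase, the enzyme that makes the precursors of DNA, so replication forks stall and the S-phase checkpoint is switched on. The checkpoint kinases Mec1, Rad53 and Dun1 then remove the repressor Rfx1 (also named Crt1) from sites called X-boxes. This raises transcription of RNR2, RNR3 and RNR4, genes of ribonucleotide reductase. Entry into S phase is driven by the factors MBF and SBF, which bind the MCB and SCB elements of G1/S genes. Mitotic genes of the CLB2 cluster are driven later by Mcm1 with the forkhead protein Fkh2. Yap1 is a factor that enters the nucleus when its cysteines are oxidised and then activates genes of peroxide defence.

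At R30, 99 features (1.53% of those kept) were at least 2-fold higher and 224 (3.45%) at least 2-fold lower than in HU. Because overlapping windows share reads, these features form 61 higher and 136 lower separate stretches of the genome. Counts of list members past 2-fold in WT are to be read beside the shares of all features, which were 4.98% in either direction. Several lists do not exceed them. The lower side held genes of ribonucleotide reductase, the G1/S programme, peroxide defence, protein folding in the endoplasmic reticulum and sugar breakdown. The higher side held genes of mitosis and cytokinesis, histones, early steps of the citric acid cycle and the plasma membrane. The median difference of all kept features was 0.02, with 5% of features under −0.85 and 5% over 0.65. At least 4-fold differences were found for 17 higher and 21 lower features. The interval for counting error stayed above 0 for 95 of the 99 and below 0 for 213 of the 224. With neighbours separated, 73 of the 99 and 157 of the 224 were still past 2-fold in the same direction, and 8 and 20 had the opposite sign. Of all kept features, 431 were at least 2-fold higher and 621 at least 2-fold lower after separation. Being past 2-fold after separation is therefore a weaker mark than being past it as deposited.

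**Figure D1:**
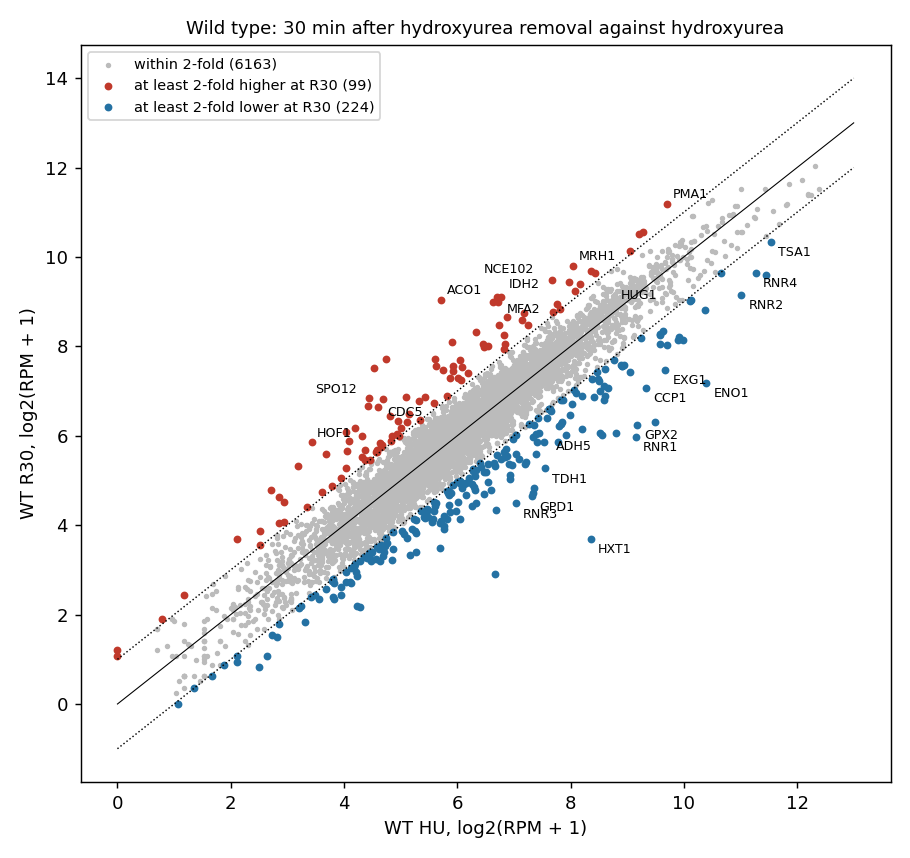
Each point is 1 of 6486 features, with log2(RPM + 1) in WT R30 on the vertical axis and in WT HU on the horizontal axis. The solid line marks equal values and the dotted lines a 2-fold difference; 99 features lie on or above the upper dotted line and 224 on or below the lower one.

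The threshold of 2-fold has no gap around it. Just inside it stood BOI1 (1.00) and IQG1 (1.01) on the higher side, and YCL026C-B (−1.004) and YNR073C (−1.01) on the lower side. Just outside stood YIL100C-A (0.99) and YNL067W-A (0.98), and GRE1 (−0.998) and ECM18 (−0.997).

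The promoters of 4 gene lists were searched for the elements that the textbook regulators of those lists bind, because these lists hold many of the differences described below. The lists were Yap1 targets, the mitotic CLB2 cluster, DNA damage induced genes and G1/S genes. The window was 500 bases before the start codon, on both strands, in the reference genome R64 (the build sacCer3). A match is a description of the letters and not evidence of binding. The Yap1 site, TTACTAA or its reverse complement TTAGTAA, was present in 15 of 26 Yap1 targets and in 9 of the 14 that were past 2-fold, beside 11.8% of 6000 promoters. Shown here are the stretches around it in genes with lower values at R30, with the element in capitals and the gene's own strand written 5′ to 3′.
GPX2 (chrII:707231-707310, plus strand): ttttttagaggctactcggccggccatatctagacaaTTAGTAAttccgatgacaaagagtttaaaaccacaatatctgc
SRX1 (chrXI:277943-278022, plus strand): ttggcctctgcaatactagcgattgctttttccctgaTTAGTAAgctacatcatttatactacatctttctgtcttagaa
GTT2 (chrXII:21895-21974, minus strand): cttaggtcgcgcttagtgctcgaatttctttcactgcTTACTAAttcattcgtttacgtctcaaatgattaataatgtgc
The element lay 254 bases before the start codon in GPX2, 295 in SRX1 and 92 in GTT2. The deposited coordinates place the body of SRX1 at chrXI:277926-278309, which holds the stretch shown. Its windows and its separated value therefore rest on a body that is offset from the R64 gene.

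The forkhead element GTAAACA, shown in capitals in genes with higher values at R30, was present in 14 of 29 CLB2 cluster promoters and in 5 of the 14 past 2-fold, beside 10.3% of all promoters.
HOF1 (chrXIII:335061-335140, plus strand): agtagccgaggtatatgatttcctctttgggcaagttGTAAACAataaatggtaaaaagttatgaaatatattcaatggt
SPO12 (chrVIII:401171-401250, plus strand): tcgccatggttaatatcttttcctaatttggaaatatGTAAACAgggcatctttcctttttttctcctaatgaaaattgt
SWI5 (chrIV:751001-751080, minus strand): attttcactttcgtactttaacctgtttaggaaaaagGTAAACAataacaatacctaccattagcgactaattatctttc
It lay 194, 220 and 295 bases before the start codon of HOF1, SPO12 and SWI5.

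The core of the X-box, GTTGCC, is in capitals in 3 subunit genes of ribonucleotide reductase, although RNR1 is not among the Rfx1 targets named above. The core was present in 9 of 21 DNA damage induced genes and in 5 of the 7 that were past 2-fold, beside 13.7% of all promoters.
RNR1 (chrV:298744-298823, plus strand): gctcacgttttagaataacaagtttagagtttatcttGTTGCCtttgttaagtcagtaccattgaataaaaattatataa
RNR3 (chrIX:240937-241016, minus strand): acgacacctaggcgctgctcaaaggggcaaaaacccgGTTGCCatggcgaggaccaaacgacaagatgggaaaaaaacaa
RNR2 (chrX:392000-392079, plus strand): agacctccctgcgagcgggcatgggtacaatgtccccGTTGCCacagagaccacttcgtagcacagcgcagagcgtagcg
The promoter of RNR2 held 3 copies, of which 1 is shown.

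The MCB element ACGCGT was present in 18 of 33 G1/S genes and in 5 of the 6 past 2-fold, beside 5.4% of all promoters. The SCB element CGCGAAA was present in 13 of 33 and in 3 of the 6, beside 5.8%. Elements of MCB are in capitals.
RNR1 (chrV:298607-298686, plus strand): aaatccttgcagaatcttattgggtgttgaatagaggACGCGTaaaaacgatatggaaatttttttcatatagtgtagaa
POL30 (chrII:425919-425998, minus strand): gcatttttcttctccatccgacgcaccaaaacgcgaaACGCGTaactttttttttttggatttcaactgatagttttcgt
CDC21 (chrXV:467668-467747, minus strand): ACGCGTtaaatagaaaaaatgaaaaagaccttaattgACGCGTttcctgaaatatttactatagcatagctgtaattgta
The promoter of RNR1 held 4 copies of the MCB element in all, and the stretch of CDC21 shows both of its copies.

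All 4 subunit genes of ribonucleotide reductase were at least 2-fold lower at R30 than in HU. RNR1, which encodes the main large subunit, had 86.9, 568, 62.2 and 338 RPM at G1, HU, R30 and R60, a difference of −3.17 (−3.45 to −2.89). RNR3, the large subunit made under DNA damage, had 14.0, 130, 21.4 and 15.6 RPM, a difference of −2.55 (−3.02 to −2.07). The 2 genes differed at R60, where RNR1 was again high and RNR3 stayed low. RNR2 and RNR4 encode the small subunit. RNR2 had 178, 2069, 569 and 280 RPM over the 4 times, a difference of −1.86 (−1.96 to −1.76). RNR4 had 286, 2467, 801 and 374 RPM, a difference of −1.62 (−1.71 to −1.53). Both were still higher at R30 than at G1, whereas RNR1 was lower at R30 than at G1.

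The small protein inhibitors of the enzyme did not go the same way. HUG1, an inhibitor gene that the checkpoint induces, had 76.6, 445, 491 and 219 RPM at G1, HU, R30 and R60, a difference of 0.14. SML1, whose product holds ribonucleotide reductase inactive outside S phase and is degraded on Mec1 signalling, had 245, 453, 845 and 310 RPM, a difference of 0.90. These genes are neighbours and share windows. After separation HUG1 had a difference of −0.60 and SML1 one of 1.33, so the sign of HUG1 depends on how reads of SML1 are assigned.

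Of 21 DNA damage induced genes, 7 were at least 2-fold lower and 0 higher at R30, 18 had a negative difference and the list's median was −0.38 (−0.998 with neighbours separated), beside 0.02 over all features. All 7 stayed past 2-fold after separation. Besides the RNR genes they included TOS4 and RAD54. TOS4, a forkhead-domain gene of G1/S and of the damage response, had 17.9, 79.7, 21.5 and 124 RPM at G1, HU, R30 and R60, a difference of −1.84. After separation TOS4 had 0 RPM at R30, against 45.1 RPM in HU (−5.53), and −6.22 where the gene bodies were not extended. RAD54, a gene of homologous recombination, had 16.9 RPM at R30, against 42.3 RPM in HU (−1.27). In mec1, 0 of the 21 genes were past 2-fold in either direction, beside 2.47% of all features in that strain, so this count is near the share of all features. The list's median in mec1 was 0.09.

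None of the RNR genes was past 2-fold in mec1, and the strains lay farther apart in HU than at R30. RNR2 had 305 RPM at R30, against 310 RPM in HU of mec1, and RNR4 had 437 and 408 RPM. RNR1 had 69.9 RPM at R30, against 98.5 RPM in HU of mec1 (−0.49), and RNR3 had 31.7 and 29.9 RPM. The WT values of RNR1 and RNR3 at R30, 62.2 and 21.4 RPM, lay close to those of mec1 at R30.

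G1/S genes as a group were lower at R30 in WT: 31 of 33 had a negative difference, 6 were at least 2-fold lower, 0 were higher, and the median was −0.52 (−1.14 with neighbours separated). POL30, which encodes the replication clamp PCNA, had 127, 227, 75.5 and 340 RPM at G1, HU, R30 and R60, a difference of −1.58 (−1.86 to −1.30). It shares windows with YBR089W (−1.54). After separation POL30 had 0 RPM at R30, against 118 RPM in HU (−6.90), and −2.09 where the gene bodies were not extended, so its size depends on separation. CDC21, the thymidylate synthase gene, had 17.1, 37.4, 13.1 and 46.7 RPM, a difference of −1.45 (−2.09 to −0.80). MCD1, which encodes the cohesin subunit cleaved at anaphase, had 32.0, 58.6, 25.3 and 113 RPM, a difference of −1.18. In each of these genes R30 was the lowest of the 4 times and R60 the highest. RFA2 of the single-strand binding complex RPA (−1.02) and RNR1 were also past 2-fold. The median level of the list was 45.8, 55.0, 40.9 and 109 RPM over the 4 times. In mec1, 1 of the 33 was at least 2-fold higher at R30 and 0 lower, beside 1.40% and 1.08% of all features, with a median of −0.04. That gene was CDC21, at 36.4 RPM at R30, against 17.0 RPM in HU of mec1.

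Among cyclin genes the mitotic cyclin gene CLB2 was past 2-fold. It had 14.0, 47.1, 106 and 42.0 RPM at G1, HU, R30 and R60, a difference of 1.15 (0.78 to 1.53). The G1 cyclin gene CLN2 had 35.3, 19.0, 11.2 and 131.5 RPM, lowest at R30, and its difference of −0.72 (−1.47 to 0.04) did not reach 2-fold. The other named cyclins were within 2-fold: CLN1 at −0.39, CLB1 at −0.09, CLB5 at 0.68 and CLB6 at −0.34. CLB6 was past 2-fold after separation, at −1.59, and at −1.02 where the bodies were not extended. Of 17 cyclin and CDK inhibitor genes, CLB2 alone was past 2-fold, and CDC20, the activator of the anaphase-promoting complex, had a difference of 0.74 (1.57 after separation).

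**Figure D2:**
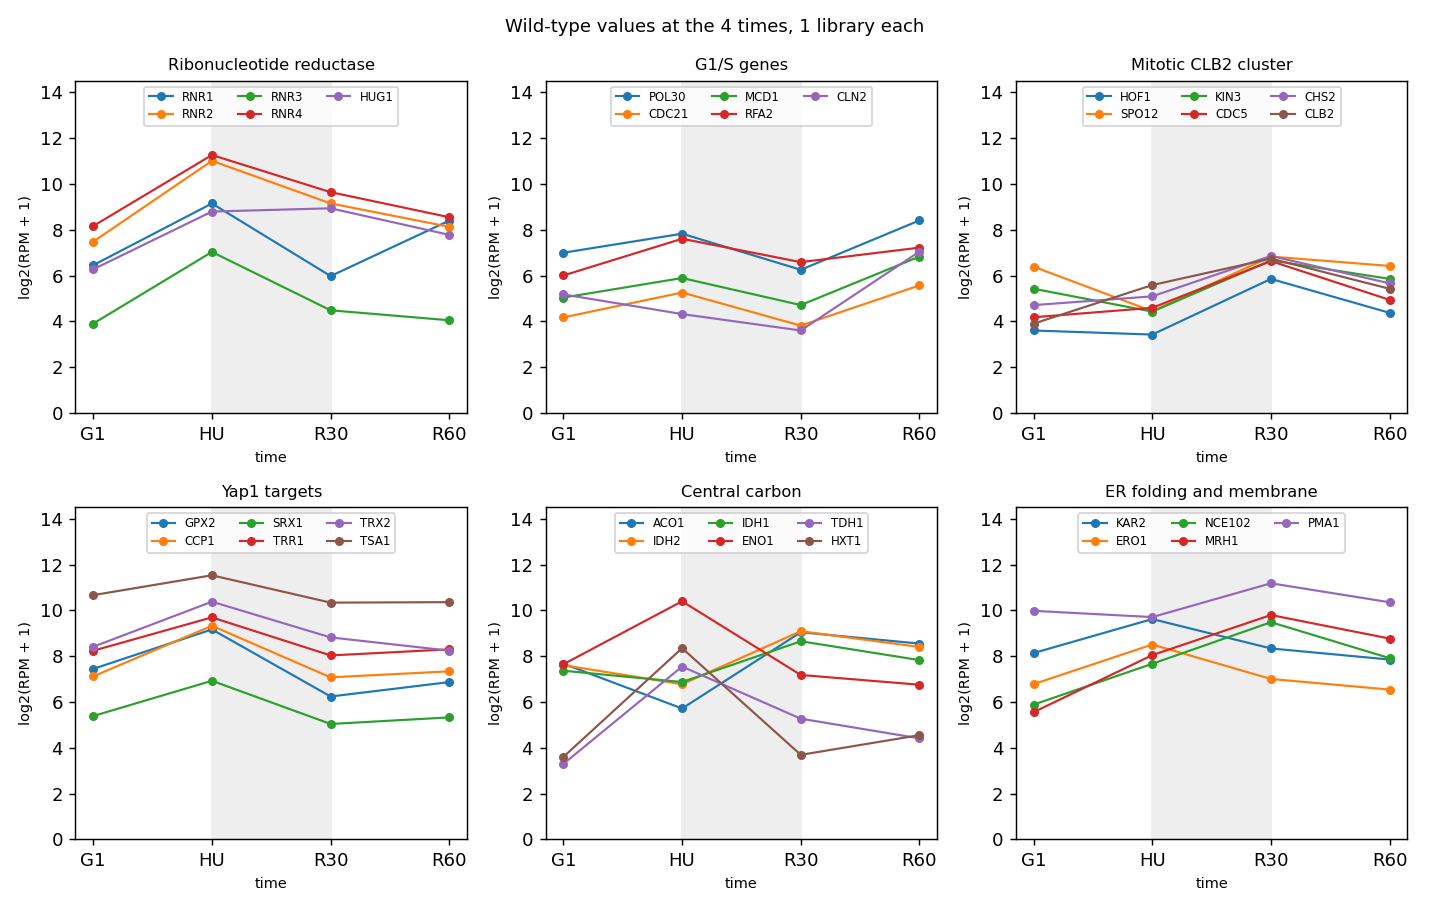
Lines join the log2(RPM + 1) of single WT libraries at G1, HU, R30 and R60, and the grey band marks the step from HU to R30. RNR genes, G1/S genes and Yap1 targets are lower at R30 than in HU, mitotic genes are higher, and HUG1 is nearly level, at 491 RPM at R30 and 445 RPM in HU.

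Mitotic genes of the CLB2 cluster were the list with the highest median of the 36. Of 29 genes, 14 were at least 2-fold higher at R30 and 0 lower, and the median was 0.78 (1.23 with neighbours separated). The difference was positive in 22 genes and negative in 7, with the lowest at −0.88. All 14 stayed past 2-fold with neighbours separated. The median level was 40.1, 38.1, 71.5 and 42.0 RPM at G1, HU, R30 and R60, so R30 was the only one of the 4 times with a raised median.

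The genes of this cluster with the largest differences act late in mitosis. HOF1, which links the septins to the contracting ring, had 11.2, 9.76, 57.0 and 19.8 RPM at G1, HU, R30 and R60, a difference of 2.43 (1.73 to 3.14). SPO12 belongs to the network that releases the phosphatase Cdc14 in anaphase, and had 83.1, 20.8, 113 and 84.9 RPM, a difference of 2.39 (1.88 to 2.90). KIN3, a kinase gene of the NIMA family, had 42.1, 20.5, 101 and 57.0 RPM, a difference of 2.24 (1.72 to 2.75). HOF1 was low at all other times, whereas SPO12 and KIN3 were low in HU and intermediate at G1 and R60. CDC5 encodes polo kinase and had 17.2, 23.2, 98.5 and 29.7 RPM, a difference of 2.04 (1.55 to 2.53). CHS2, the chitin synthase of the primary septum, had 25.2, 33.2, 115 and 49.7 RPM, a difference of 1.76 (1.34 to 2.19). For both, R30 was the highest of the 4 times by more than 2-fold.

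Other members past 2-fold, named here after their values were seen, cover several steps of the cycle. They were SWI5 (1.61), the activator of the next M/G1 genes, DBF2 (1.11) and MOB1 (1.06), the kinase and its partner in the mitotic exit network, and IQG1 (1.01), a scaffold of the contracting ring. HST3 (1.17), a histone deacetylase gene, and CDC47 (1.14), a subunit of the replicative helicase, were also among them, as was CLB2 itself. PMA1, the proton pump of the plasma membrane and a known late member of the cluster, had 1012, 837, 2331 and 1311 RPM at G1, HU, R30 and R60 (1.48), and its small regulator PMP1 had 593, 624, 1511 and 819 RPM (1.28).

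In mec1, 1 of the 29 genes of the CLB2 cluster was at least 2-fold higher and the median was 0.16, beside 1.40% of all features in that strain. That gene was SPO12, with 116 RPM at R30 and 55.8 RPM in HU of mec1 (1.04). HOF1 had 33.1 RPM at R30, against 31.9 RPM in HU of mec1, and CHS2 had 85.4 and 80.4 RPM. In HU these genes were lower in WT than in mec1: HOF1 had 9.76 RPM in WT and 31.9 RPM in mec1, CHS2 had 33.2 and 80.4 RPM, and CLB2 had 47.1 and 94.0 RPM. The difference between strains has no replicate and was not tested.

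Among 22 septin and cytokinesis genes, 4 were at least 2-fold higher, 1 was lower and the median was 0.12. The higher ones were HOF1, CHS2, IQG1 and the formin gene BNR1. BNR1 had 80.03 RPM at R30, against 30.1 RPM in HU (1.38), but its sign reversed to −5.48 with neighbours separated, so its value cannot be assigned to it alone. HSL1, a kinase gene that couples the septin ring to mitotic entry, had 29.1 RPM at R30, against 66.1 RPM in HU (−1.16). Of 28 tubulin and spindle genes, 0 were higher and 2 were lower, with a median of −0.16. These 2 belong to the spindle pole body: SPC42, its central plaque gene, had 16.6 RPM at R30, against 46.6 RPM in HU (−1.44), and TUB4, gamma-tubulin, had 36.0 and 76.2 RPM (−1.06). SPC42 shares windows with PHD1, a regulator of filamentous growth with a larger difference (−1.91). The kinesin genes CIN8 (−0.87) and KIP1 (−0.66) were within 2-fold as deposited, and CIN8 was past it after separation (−1.55).

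Histone genes had a median of 0.62, and 8 of 10 had a positive difference. HTA2, a gene of histone H2A, had 60.8, 144, 428 and 115 RPM at G1, HU, R30 and R60, a difference of 1.56 (1.35 to 1.77). HTB2, the H2B gene next to it, had 129.5, 150, 354 and 149 RPM, a difference of 1.23 (1.02 to 1.44). HHF1, an H4 gene, had 188 RPM at R30, against 96.3 RPM in HU (0.96). These 3 had their highest WT value at R30. The linker histone gene HHO1 had a difference of −0.82, and −1.25 after separation. In mec1 2 of the 10 were at least 2-fold higher, beside 1.40% of all features in that strain. HHF1 had 327 RPM at R30, against 91.8 RPM in HU of mec1. The 29 M/G1 genes, which act in cell separation and in licensing of replication, had a median of −0.09 and 1 gene past 2-fold at R30. That was HSP150, a secreted wall protein, at 817 RPM at R30, against 327 RPM in HU (1.32). The chitinase gene CTS1, which separates daughter from mother, had 193, 103, 55.9 and 521 RPM at G1, HU, R30 and R60 (−0.86), and its difference was −7.06 after separation and −1.68 where the bodies were not extended. The median level of the list was 49.3 RPM at R30, against 48.9 RPM in HU, and 148 RPM at R60. Of 23 checkpoint genes, with a median of −0.05, MEC1 was the 1 past 2-fold as deposited. MEC1 had 35.7 RPM at R30, against 90.3 RPM in HU (−1.31), but its windows overlap YBR137W (−1.61) and the sign was positive after separation (4.68). DUN1, the kinase that acts on Sml1 and Rfx1, had a difference of −0.77, and −2.06 after separation.

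The 26 Yap1 targets had the lowest median of the 36 lists as deposited, −1.07, with 14 genes at least 2-fold lower at R30, 0 higher and 24 with a negative difference. All 14 stayed past 2-fold after separation, where the median of this list was −1.13 and that of G1/S genes slightly lower, at −1.14. The median level was 142, 220, 120 and 121 RPM at G1, HU, R30 and R60, so the median at R30 was under that in G1.

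The members include peroxidases, thioredoxin and glutathione genes, and exporters. GPX2, a glutathione peroxidase gene, had 174, 576, 74.7 and 116 RPM at G1, HU, R30 and R60, a difference of −2.93 (−3.19 to −2.67). CCP1, the mitochondrial cytochrome c peroxidase gene, had 138, 643, 134 and 161 RPM, a difference of −2.25 (−2.45 to −2.05). SRX1 encodes sulfiredoxin, which repairs over-oxidised peroxiredoxin, and had 40.9, 121, 32.0 and 39.2 RPM, a difference of −1.89. For GPX2 the value at R30 was more than 2-fold under that in G1, and for CCP1 and SRX1 it was a little under that in G1. TSA1, the main peroxiredoxin, had 1297 RPM at R30, against 2969 RPM in HU (−1.19). TRR1, thioredoxin reductase, had 262 RPM at R30, against 830 RPM in HU (−1.66), and its substrate gene TRX2 had 452 and 1335 RPM (−1.56). The glutathione genes GTT2 (−1.66), GSH1 (−1.29) and GRX2 (−1.11), the exporters ATR1 (−1.54) and FLR1 (−1.19), OYE2 (−1.22), PRX1 (−1.19) and SOD1 (−1.02) make up the rest of the 14. In mec1, 6 of the 26 were at least 2-fold lower, beside 1.08% of all features in that strain, and the median was −0.46. GPX2 had 121 RPM at R30, against 460 RPM in HU of mec1 (−1.92), and TSA1 had 1428 and 2990 RPM (−1.07).

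Among the general stress genes of Msn2 and Msn4, activators that respond to many stresses, 6 of 31 were at least 2-fold lower, 1 was higher and the median was −0.22. GPD1, the glycerol-3-phosphate dehydrogenase of the osmotic response, had 48.3, 159, 24.0 and 19.3 RPM at G1, HU, R30 and R60, a difference of −2.68 (−3.13 to −2.23). HOR2, the phosphatase of the next step to glycerol, had 24.6, 92.3, 30.2 and 23.5 RPM, a difference of −1.58. Both glycerol genes were high in HU alone. In mec1 they did not share this: GPD1 had 66.1 RPM at R30, against 61.8 RPM in HU, and HOR2 had 63.0 and 63.9 RPM. DDR48, a stress protein gene, had 64.3 RPM at R30, against 242 RPM in HU of WT (−1.90). YGP1, a secreted glycoprotein gene, was the higher one, at 86.4 RPM at R30, against 26.9 RPM in HU (1.65). Heat shock and chaperone genes of the cytosol lay on the other side of 0: 24 of 34 were positive, the median was 0.31, and HSP82 (0.96) and HSP104 (0.93) came near 2-fold. HSP31, a glyoxalase gene that Yap1 also controls, was the 1 past it (−1.23).

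Folding genes of the endoplasmic reticulum were lower at R30 in 23 of 27 cases, with 4 at least 2-fold lower, 0 higher and a median of −0.45. ERO1, the oxidase that supplies disulphide bonds, had 109, 364, 128 and 92.4 RPM at G1, HU, R30 and R60, a difference of −1.50 (−1.72 to −1.29). KAR2, the Hsp70 chaperone of this compartment, had 281, 789, 323 and 231 RPM, a difference of −1.28 (−1.42 to −1.14). Both were highest in HU and near their G1 value at R30. MPD1 (−1.09), a disulphide isomerase, and JEM1 (−1.08), a co-chaperone of Kar2, were the other members past 2-fold. In mec1, 4 of the 27 genes were also at least 2-fold lower, beside 1.08% of all features, with a median of −0.57. KAR2 had 486 RPM at R30, against 928 RPM in HU of that strain (−0.93).

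**Figure D3:**
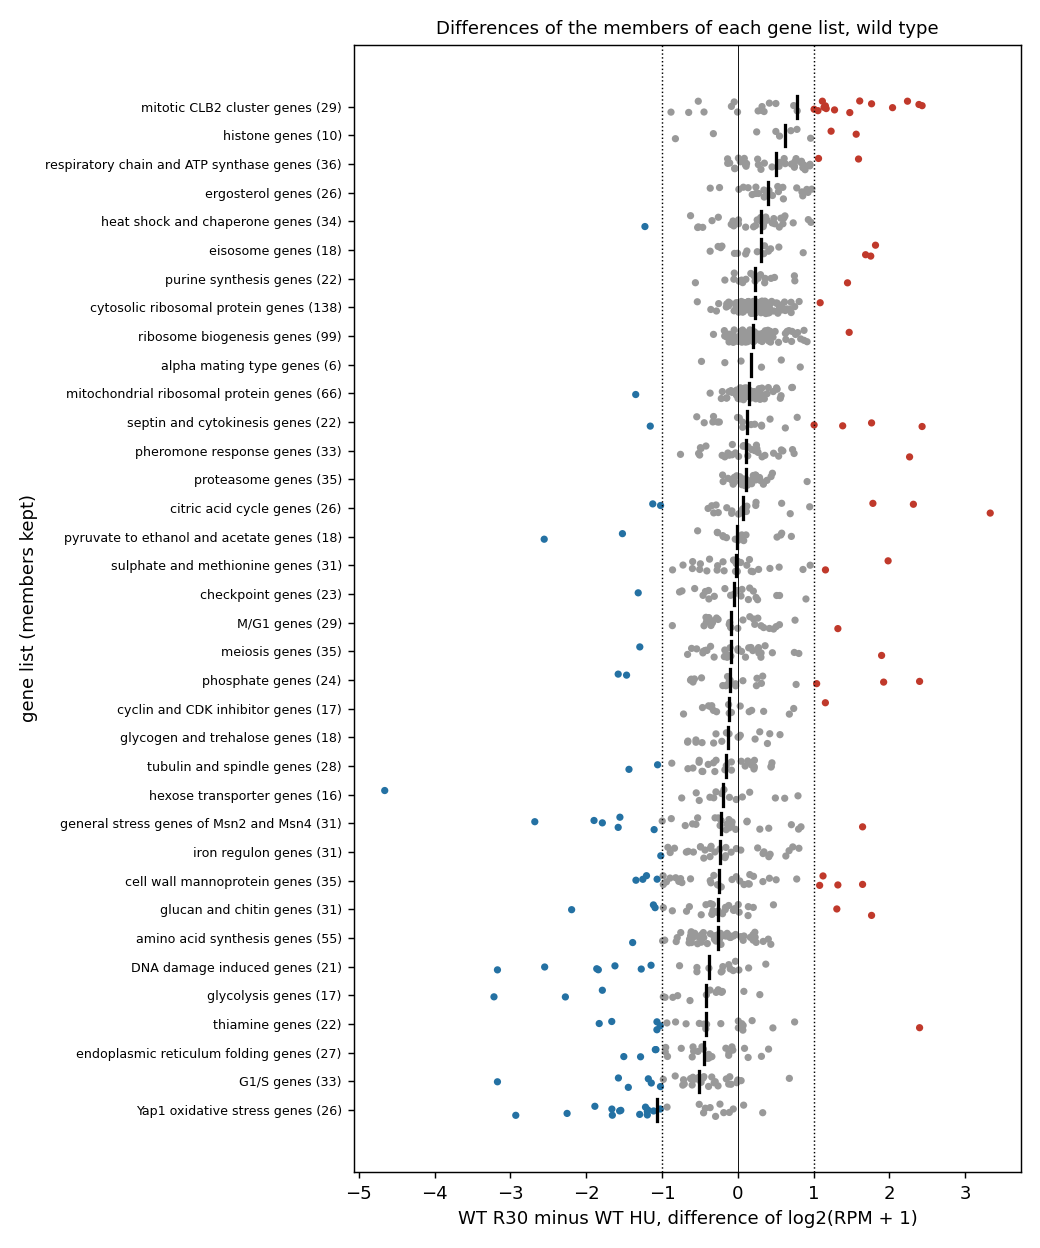
Each point is a gene of one of 36 lists, placed by its difference WT R30 minus WT HU in log2(RPM + 1), and each black bar is the median of the list. Lists run from the CLB2 cluster at the top (median 0.78) to the Yap1 targets at the bottom (median −1.07); red and blue points are past 2-fold, beside 1.53% and 3.45% of all features.

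In central carbon metabolism, the largest difference upwards was at an early step of the citric acid cycle. ACO1, the aconitase gene, had 203, 51.7, 529 and 375 RPM at G1, HU, R30 and R60, a difference of 3.33 (3.01 to 3.65). IDH2 and IDH1 encode the NAD-dependent isocitrate dehydrogenase that acts next. IDH2 had 195, 109, 546 and 338 RPM, a difference of 2.32 (2.08 to 2.55), and IDH1 had 164, 116, 402 and 227 RPM, a difference of 1.78 (1.55 to 2.01). All 3 were lowest in HU and highest at R30. Of the 26 genes of the cycle and its feeding steps, these were the 3 past 2-fold upwards, and the median of the list was 0.06. CIT2, the peroxisomal citrate synthase gene, had 46.7 RPM at R30, against 103 RPM in HU (−1.12), and PYC2, a pyruvate carboxylase gene, had 63.9 and 131 RPM (−1.02). In mec1 the same 3 genes were farther apart: ACO1 had 1241 RPM at R30, against 45.6 RPM in HU (4.74), IDH2 had 664 and 65.9 RPM (3.31), and IDH1 had 1108 and 222 RPM (2.31). CIT2 was in the other direction there, at 149 RPM at R30, against 90.1 RPM in HU of mec1 (0.72).

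PDH1, a 2-methylcitrate dehydratase gene of propionate breakdown, was low throughout but also higher, with 6.37, 5.51, 26.7 and 9.03 RPM at G1, HU, R30 and R60, a difference of 2.09 (1.19 to 2.99). Respiratory chain and ATP synthase genes had a median of 0.50 with 31 of 36 positive, and 2 were past 2-fold. NDE1, the external NADH dehydrogenase of mitochondria, had 272, 86.5, 263 and 231 RPM over the 4 times, a difference of 1.59. COX13, a subunit of cytochrome oxidase, had 130, 55.8, 118 and 133.5 RPM, a difference of 1.06. Both were low in HU alone, and at R30 they were near G1. The list's median level was 167, 93.2, 129 and 169 RPM at the 4 times. Of 66 mitochondrial ribosomal protein genes, 52 were positive with a median of 0.15. The 1 past 2-fold, MRPS9 (−1.35), shares windows with ADH5 and had −0.19 after separation.

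A few genes of sugar uptake and glycolysis were much lower at R30. HXT1, the low-affinity glucose transporter gene, had 11.2, 326, 11.9 and 22.5 RPM at G1, HU, R30 and R60, a difference of −4.66 (−5.23 to −4.09), the largest of all named genes. Among 16 hexose transporter genes it was the 1 past 2-fold. HXT3 had 349 RPM at R30, against 585 RPM in HU (−0.74), and HXT4 had 618 and 402 RPM (0.62). ENO1, an enolase gene, had 200, 1351, 144 and 107 RPM, a difference of −3.22 (−3.40 to −3.03). TDH1, a glyceraldehyde-3-phosphate dehydrogenase gene, had 8.85, 186, 37.7 and 20.3 RPM, a difference of −2.28 (−2.65 to −1.91). GLK1, a glucokinase gene, had 108, 382, 110 and 121 RPM, a difference of −1.79. These 3 were the members past 2-fold among 17 glycolysis genes, of which 15 were negative, with a median of −0.42 that became −0.25 under quantile normalization. TPI1, with 1424 RPM at R30, against 2816 RPM in HU, came near 2-fold (−0.98).

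Of 18 genes from pyruvate to ethanol and acetate, ADH5 and ADH4 were at least 2-fold lower and 0 higher, and the median was −0.02. The alcohol dehydrogenase gene ADH5 had 87.9, 377, 63.4 and 93.3 RPM at G1, HU, R30 and R60 (−2.55), and ADH4 had 68.9, 254, 87.8 and 66.8 RPM (−1.52). In mec1, HXT1 had 21.9 RPM at R30, against 132 RPM in HU (−2.53), and ENO1 had 139 and 647 RPM (−2.21). TDH1 was level in mec1, at 39.1 RPM at R30, against 38.9 RPM in HU. Glycogen and trehalose genes held 0 of 18 past 2-fold, with differences between −0.66 and 0.56 as deposited. The genes at the ends of this range depend on separation: GDB1 had −1.94 after it (−1.17 without extension of the bodies) and TPS3 −5.70 (−0.28).

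Several genes of the cell surface were past 2-fold. Eisosomes are furrows of the plasma membrane, and 3 of 18 genes of the list were at least 2-fold higher, 0 lower, with a median of 0.30. NCE102, a membrane protein gene of the furrows, had 58.2, 203, 717 and 241 RPM at G1, HU, R30 and R60, a difference of 1.82 (1.64 to 1.99). MRH1, a membrane protein gene, had 46.1, 264, 891 and 436 RPM, a difference of 1.75 (1.60 to 1.91). Both already stood above G1 in HU and peaked at R30. YMR031C (1.69), the third, is the neighbour of HOF1 and changed sign under one form of separation. SUR7, which marks the furrows, had a difference of 0.86. Ergosterol genes had 0 of 26 past 2-fold, yet 24 were positive, with a median of 0.39. ERG3 (0.98), ERG11 (0.93) and MVD1 (0.91) were the largest of them.

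Wall genes went both ways. EXG1, the main exo-glucanase gene, had 294, 815, 177 and 787 RPM at G1, HU, R30 and R60, a difference of −2.19 (−2.37 to −2.02), so R30 was the lowest of the 4 times. Of 31 glucan and chitin genes 3 were at least 2-fold lower (EXG1, GAS3 and SIM1) and 2 higher (CHS2 and SKN1), with a median of −0.26. GAS3 had 74.7 RPM at R30, against 163 RPM in HU (−1.11), and SKN1, a gene of beta-1,6-glucan synthesis, had 50.0 and 19.6 RPM (1.31). Of 35 wall mannoprotein genes, 4 were higher and 4 lower, with a median of −0.25. SRL1 had 189 RPM at R30, against 480.5 RPM in HU (−1.34). On the higher side stood YGP1, HSP150, TIP1 (1.12) and the flocculin gene MUC1 (1.08), TIP1 and MUC1 being named after their values were seen. The lower side also held DAN4 (−1.25), DAN1 (−1.21) and FLO5 (−1.07), whose levels at R30 were 6.8, 4.1 and 2.5 RPM and rest on few reads.

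**Figure D4:**
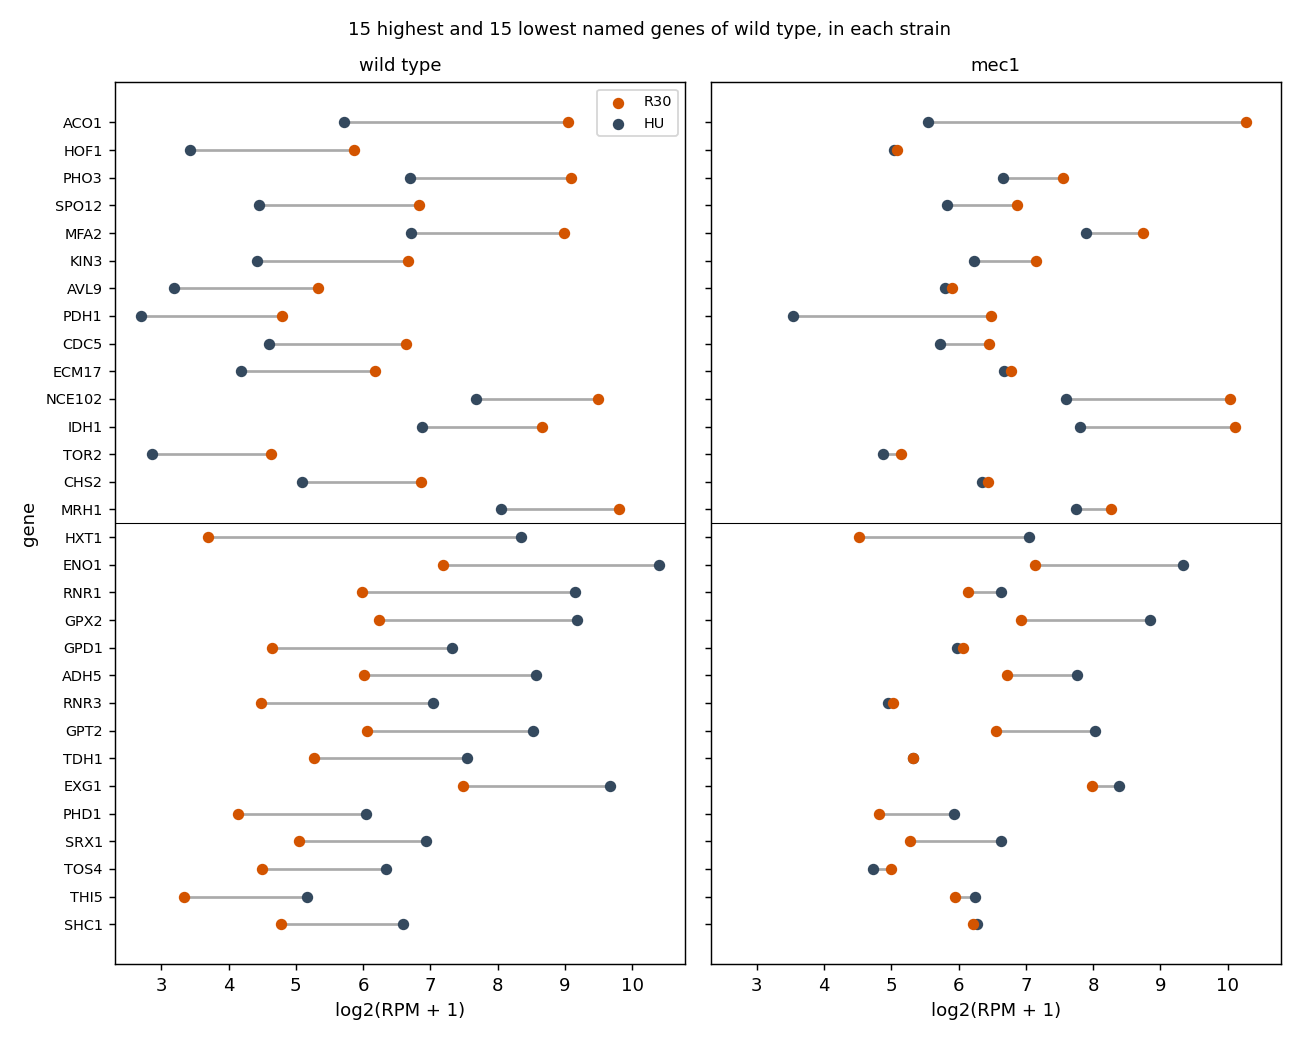
Points give log2(RPM + 1) at R30 (orange) and in HU (dark blue) for 15 genes with large higher and 15 with large lower differences in WT (gene name, at least 20 RPM, no overlapping feature with a larger difference, same sign after separation), with WT in the left panel and mec1 in the right. ACO1, NCE102, IDH1 and PDH1 lie farther apart in mec1, while HOF1, CHS2, RNR3, GPD1 and TDH1 are nearly level there.

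Phosphate and thiamine genes contributed single large differences. PHO3, an acid phosphatase gene that thiamine represses, had 149, 103, 547 and 298.5 RPM at G1, HU, R30 and R60, a difference of 2.40 (2.16 to 2.63). PHO5, its neighbour and near copy, had 187 RPM at R30, against 48.6 RPM in HU (1.92), and had −0.29 after separation and 0.87 where the bodies were not extended, so its difference cannot be told apart from that of PHO3. PHO84, the high-affinity phosphate transporter gene, had 157, 385, 138 and 105 RPM over the 4 times (−1.47). In all, 3 of 24 phosphate genes were higher (PHO3, PHO5 and PHO89) and 2 lower (PHO84 and HOR2), with a median of −0.11. Of 22 thiamine genes 5 were lower, 1 was higher and the median was −0.42, which was 0.006 over members of at least 10 RPM and −0.11 after separation. THI7, the thiamine transporter gene, had 18.8 RPM at R30, against 61.8 RPM in HU (−1.66). THI5, a gene of pyrimidine precursor synthesis, had 9.12 and 35.0 RPM (−1.83). It shares windows with AAD16 (−1.50) and AAD6 (−1.16), and had 2.97 and 8.81 RPM after separation (−1.30). Reads of near-identical copies of THI5 and THI11 cannot be told apart.

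Amino acid synthesis genes were negative in 43 of 55 cases, with a median of −0.26, and 1 was past 2-fold. ARG3, the ornithine carbamoyltransferase gene, had 32.9, 173, 65.6 and 91.9 RPM at G1, HU, R30 and R60, a difference of −1.39 (−1.69 to −1.08). In mec1 it stood the other way, at 168 RPM at R30, against 24.8 RPM in HU. Among 31 sulphate and methionine genes, 2 were higher, with a median of −0.02. ECM17, a sulphite reductase subunit gene, had 53.4, 17.2, 71.0 and 98.0 RPM (1.98), and SAM1, an S-adenosylmethionine synthetase gene, had 586, 271, 604 and 772 RPM (1.16). Both were lowest in HU. ADE1 (1.45), the 1 of 22 purine genes past 2-fold, shares windows with KIN3 but kept 1.19 after separation. The iron regulon held 1 of 31 past 2-fold, the siderophore transporter gene ARN2 (−1.02), with a median of −0.24. This 3.2% lies near the 3.45% of all features that were lower.

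Genes of protein synthesis differed little, mostly with the same sign. Of 138 cytosolic ribosomal protein genes, 124 were positive, the median was 0.23 and 1, RPL8A (1.09), was past 2-fold. Of 99 ribosome biogenesis genes, 83 were positive with a median of 0.20. UTP20 (1.47), the 1 past 2-fold, is the neighbour of HTA2 and kept 1.07 after separation. Proteasome genes held 0 of 35 past 2-fold, between −0.20 and 0.91, with a median of 0.11. Some genes among the largest differences belong to none of these groups. TOR2, a kinase of growth control, had 17.0, 6.27, 23.7 and 21.5 RPM at G1, HU, R30 and R60 (1.77), and AVL9, a gene of exocytosis, had 35.1, 8.14, 39.1 and 36.5 RPM (2.13). Both were low in HU alone. GPT2, an acyltransferase of lipid synthesis (−2.46), shares windows with CCP1 and stayed negative after separation, at −3.81.

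Genes of mating type were read to check the cells. Of 5 markers of a cells (MFA1, MFA2, STE2, BAR1 and AGA2), the sum was 1308 RPM at R30 and 746 RPM in HU, and none was at 0 after separation. AGA2 depended on separation, with 306 RPM at R30 and 258 RPM in HU as deposited, and 44.1 and 59.8 RPM after it. Of 4 markers of alpha cells the sum was 71.6 RPM at R30 and 54.3 RPM in HU, and STE3, the receptor of alpha cells for a-factor, was at 0 after separation in both. SAG1, MF(ALPHA)1 and MF(ALPHA)2 were above 0 after separation, with SAG1 the highest at 77.2 RPM at R30 and 54.2 RPM in HU. Of 5 markers of meiotic diploids the sum was 70.8 RPM at R30 and 66.7 RPM in HU, with SPO13 at 0 after separation. IME1, IME2, NDT80 and SPO11 were above 0 after separation, with NDT80 the highest at 37.9 RPM at R30 and 39.7 RPM in HU. MFA2, a gene of the a-factor pheromone, had 1080, 104, 505 and 708 RPM at G1, HU, R30 and R60 and accounted for most of the higher sum at R30 (2.27, 2.03 to 2.50). MFA1, the other a-factor gene, had 989, 37.8, 63.95 and 135.5 RPM (0.74). Of 33 pheromone response genes MFA2 was the 1 past 2-fold, and the median was 0.11. The 6 alpha mating type genes were all within 2-fold, with a median of 0.18. Of 35 meiosis genes, with a median of −0.09, SPO16 (1.90) and DIT2 (−1.29) were past 2-fold. SPO16 is the neighbour of SPO12 and had −2.57 after separation and 1.02 where the bodies were not extended. DIT2 had 3.60 where they were not extended.

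**Figure D5:**
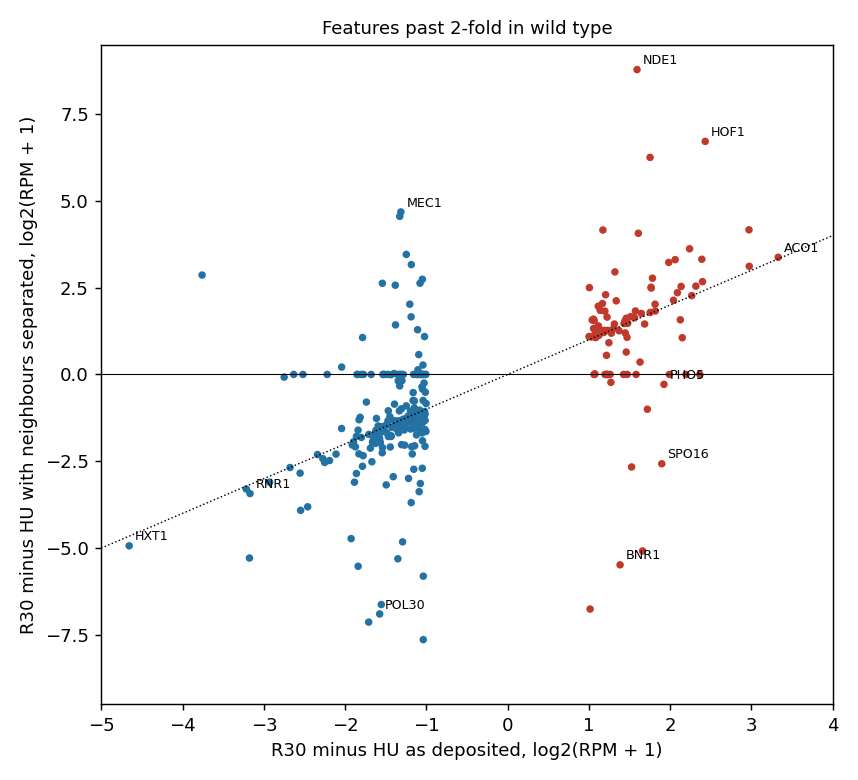
Each point is 1 of the 323 features past 2-fold (4.98%), with the difference R30 minus HU as deposited on the horizontal axis and after separation of neighbours on the vertical axis, both in log2(RPM + 1). Points near the dotted line of equality, such as ACO1, RNR1 and HXT1, kept their size; MEC1, BNR1, SPO16 and PHO5 lie on the other side of 0.

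Across the 6482 features kept in both strains, the R30 minus HU differences of WT and mec1 correlated at 0.422 (Pearson), a description over features that share windows and libraries. In mec1, 91 features (1.40%) were at least 2-fold higher and 70 (1.08%) lower at R30 than in HU. Of the 99 higher in WT, 24 were also at least 2-fold higher in mec1 and 1 was lower. Of the 224 lower in WT, 36 were also lower in mec1 and 4 were higher. The genes ACO1, IDH1, IDH2, NDE1, HXT1, ENO1 and GPX2 were past 2-fold in the same direction in both strains. RNR1, RNR2, RNR3, RNR4, HOF1, CDC5 and CHS2 were past 2-fold in WT and within 2-fold in mec1.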

How the data were processed

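The deposited table gives 8 libraries of 2 strains at 4 times, 1 each, read as 75-base pairs, per the series description, from stranded mRNA libraries, per the labels' protocols. Reads were aligned with BWA to sacCer3, per the submitters' processing notes; versions are not given in the sources used here. Per the file headers the values are log2 RPKM, but the numbers show otherwise. The deposited values are RPM, neither log-transformed nor divided by length, and the authors averaged them over windows (each gene's body, and the 1000 bp before and after it) that touch a feature. The number of windows matched this reading for 6326 of 6547 features, and 221 had fewer. The deposited standard deviation signal is a spread over windows and not over replicates. Mean and standard deviation columns were read by name.

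Computed here in Python 3.11.15 with numpy 2.4.6, pandas 2.3.3 and scipy 1.17.1 were differences of log2(RPM + 1), for features with at least 1 RPM in WT R30 or WT HU (61 removed). Counting intervals (95%) treat a feature's mean number of reads in a window as its count, and reads without molecular identifiers are not independent molecules. Neighbours were separated by non-negative least squares, with each body extended by 100 bases. Standard deviations predicted from it correlated at 0.966 to 0.970 with the deposited ones, on a log2 scale over all features. The calculation had not used these, but it was fitted to the deposited means, and both sets of standard deviations follow the level of a feature. The correlation therefore does not check how reads were split between neighbours. For 5086 features matched by symbol, 4517 coordinates lay within 10 bases of R64, and promoters were read by R64 starts. SRX1 was not among these 4517, because its deposited body begins before the R64 promoter stretch shown for it.

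Named genes were, in each direction, the 15 with the largest difference past 2-fold, with a gene name, at least 20 RPM, no overlapping feature with a larger difference and the same sign after separation (43 and 76 qualified). Beside them stand up to 4 members of each of 36 lists with the largest differences, RNR1 to RNR4, HUG1, MEC1 and 6 cyclins; further members past 2-fold were named after their values were seen. Of the lists searched for promoter elements, G1/S genes were added although other lists had larger shares past 2-fold. The lists and comparison were chosen with earlier results of these data known. No test was made, and the alternatives tried were pseudocounts of 0.1 and 5, other filters, other scalings and separation. A few members of the lists are counted but not reported here by name.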

Additional observations from a re-analysis of the deposited data

Results flagged for a closer look

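In 5 features the difference R30 minus HU was past 2-fold in WT and past 2-fold the other way in mec1. With 1 library per strain and time, this difference between strains was not tested. ARG3, the ornithine carbamoyltransferase gene of arginine synthesis, had −1.39 in WT (65.6 RPM at R30, against 173 RPM in HU) and 2.71 in mec1 (168 RPM at R30, against 24.8 RPM in HU). SIP4, an activator of gluconeogenic genes, had −1.29 in WT and 1.83 in mec1, but it shares windows with ARG3 and its WT difference was 0 after separation. CDC21, the thymidylate synthase gene, had −1.45 in WT (13.1 RPM at R30, against 37.4 RPM in HU) and 1.05 in mec1 (36.4 RPM at R30, against 17.0 RPM in HU). YOR073W-A, which overlaps CDC21, had −1.38 in WT and 1.12 in mec1, and its WT difference was 1.43 after separation. YML045W-A had 1.07 in WT, from 1.10 RPM at R30 and 0 RPM in HU, values that 0 reads would allow, and −1.17 in mec1.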

How the results depend on the processing

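No paired analysis was possible because each strain and time has 1 library. Against 99 features at least 2-fold higher and 224 lower, the counts were 117 and 264 with a pseudocount of 0.1, 78 and 156 with 5, 95 and 209 with a minimum of 10 RPM, 96 and 239 after centring, 126 and 200 after quantile normalization, and the same without a filter. With neighbours separated they were 431 and 621, and 319 and 496 when the bodies were not extended, an alternative chosen after seeing the data; the cause of the larger counts in these libraries was not tested. Among genes past 2-fold, signs reversed after separation in BNR1 (−5.48, and −5.24 without extension), MEC1 (4.68 and 0.17), PHO5 (−0.29, but 0.87) and SPO16 (−2.57, but 1.02), and without extension alone in DIT2 (3.60) and YMR031C (−5.42). Among genes within 2-fold, they reversed in HUG1 (−0.60 and −0.31) and TPS3 (−5.70 and −0.28). Of 148 named genes, separation left 92 within their counting interval and reversed 6, of which 4 were past 2-fold as deposited. Of the 70 within 2-fold as deposited, 18 were past it in both forms of separation; the cause was not tested. List medians moved for DNA damage induced genes (−0.998) and G1/S genes (−1.14) after separation, and for glycolysis genes after quantile normalization (−0.25) and separation without extension (−0.53). The thiamine median of −0.42 became 0.006 with a minimum of 10 RPM, −0.11 after separation and −0.24 after quantile normalization, and the general stress median of −0.22 became −0.43 after separation and −0.10 after quantile normalization. Depth limits features of a few RPM, since 0 reads allow 1.65 RPM at R30 and 1.88 RPM in HU.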

Other observations

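2 of the largest differences belong to features that the table lists under systematic names. YNL058C had 26.5, 22.2, 181 and 76.7 RPM at G1, HU, R30 and R60, a difference of 2.97, and 3.11 after separation. It shares windows with YNL057W, which had 210 RPM at R30, against 25.9 RPM in HU (2.97, and 4.17 after separation). The difference therefore cannot be assigned to YNL058C alone. YHR048W had 121, 720, 78.7 and 95.2 RPM, a difference of −3.18, and −5.29 after separation. In mec1 the differences were 1.11 for YNL058C and −2.87 for YHR048W.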
